A study of Arabidopsis thaliana with 13 samples.

Results

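The regions described here are the places in the Arabidopsis thaliana genome where the authors found the FLAG-tagged photoreceptor CRY2 enriched over an IgG control in low blue light. They are every row of the peak list that the authors deposited for CRY2: 7320 regions, out of 21012 in the series' 3 lists. The seedlings were of ecotype Columbia and carried a 3xFlag-6xHis-CRY2 transgene, which the labels also give as UBQ10pro::Flash-CRY2, so that CRY2 was driven by the promoter of a ubiquitin gene used in most tissues. They were grown for 5 days in white light, kept for 16 h in low blue light and collected whole. Per the labels' protocols, 18 g of seedlings were used with ethylene glycol bis-succinimidylsuccinate as a second cross-linker, with 2 FLAG and 2 IgG libraries. The IgG control came from the same tagged seedlings. The authors pooled the replicates into 1 list, so no value has a spread between replicates and none was tested. Intervals are 95% Wilson intervals and cover counting error only. Library depth is unknown.

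Cryptochromes are flavoprotein receptors that absorb blue light through a chromophore held in a photolyase-like domain. CRY2 lies in the nucleus, clusters into oligomers when lit, and is broken down in strong blue light. It is thought to reach chromatin with partner proteins such as the CIB and PIF classes of bHLH transcription factors. Whole seedlings mix all organs, so a peak does not say in which cells CRY2 was present.

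Most CRY2 regions were narrow and weakly enriched, and a small group of strong, wide regions stood at the top of the list. The authors' fold enrichment, a deposited ratio for FLAG against the IgG control, had a median of 2.29 and ran from 1.51 to 7.87. How the background in that ratio was set is not known here, so it may not be the IgG signal at the peak itself. It was at least 2 in 7159 regions (97.8%), at least 3 in 496 (6.78%), at least 4 in 82 and at least 6 in 11. The authors' -log10 p had a median of 6.24 and ran from 4.71 to 77.16. Many weak regions had identical values: 453 (6.19%) shared a fold enrichment of 2.13 with a -log10 p of 5.07, and only 1319 distinct pairs of values occurred in the list. Ranks among the weak regions are therefore coarse. Peak width had a median of 579 bp and ran from 132 to 4693 bp, with 1206 regions (16.5%) of at least 1000 bp and 147 of at least 2000 bp. Together the regions covered 5005 kb, and none overlapped another.

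The strongest region lay on STZ, the gene of a C2H2 zinc finger repressor also called ZAT10 that is induced by many stresses. It had a fold enrichment of 7.87 and a -log10 p of 75.31, spanned 2153 bp (TAIR10 chromosome 1, 9647580 to 9649732) and covered the whole gene. EXL2, a relative of the growth gene EXORDIUM, followed with 7.73 (chromosome 5, 25703565 to 25705506). RAP2.4, an ERF/DREB family transcription factor, had 7.01 (chromosome 1, 29364029 to 29366158). J11, a DnaJ co-chaperone, had 6.86 (chromosome 4, 17048474 to 17050592). All 4 of these regions had their summit inside the gene, and at least 97.7% of each gene was covered.

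The next region, at 6.61, had its summit in the transcribed pseudogene AT1G05135, 1097 bp from its nearest protein-coding gene, AT1G05136 (chromosome 1, 1477272 to 1479004). TCH4, a touch-induced xyloglucan-modifying enzyme of the cell wall, had 6.56 (chromosome 5, 23306902 to 23308277). HSPRO2, related to a nematode resistance gene of sugar beet, had 6.45 (chromosome 2, 16699858 to 16702382). ERF4, a repressor of the ethylene response factor family, had 6.14 and the highest -log10 p of the list, 77.16 (chromosome 3, 5121155 to 5122916). AT1G79480 had 6.10 (chromosome 1, 29898022 to 29899105). EXO, EXORDIUM itself, which brassinosteroids induce, had 6.04 (chromosome 4, 5739980 to 5741464). Among the 100 strongest regions, all at 3.85 or more, 88 summits lay inside a protein-coding gene, 9 within 1 kb of one and 3 farther away. Their median width was 1432 bp.

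**Figure D1:**
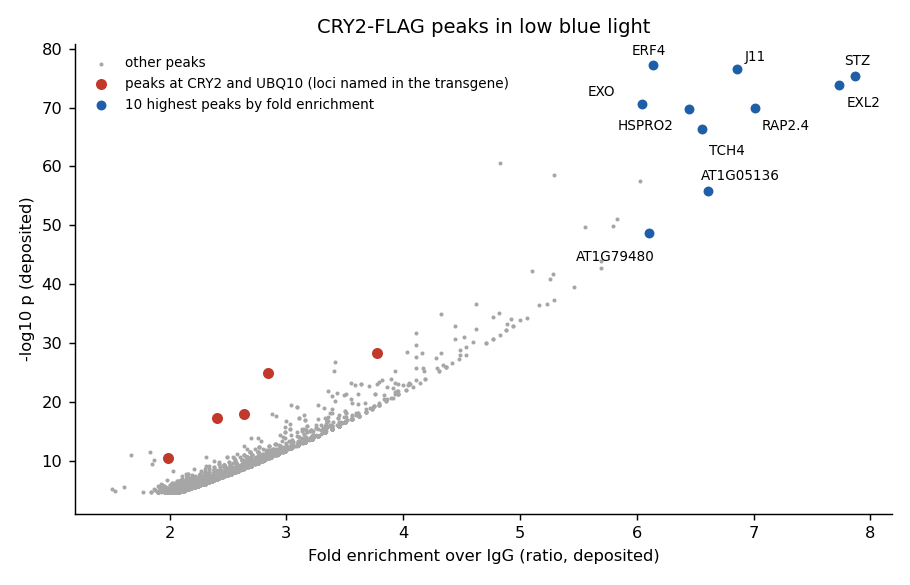
Each point is 1 of the 7320 CRY2 regions, with the authors' fold enrichment of FLAG over IgG (ratio) on the horizontal axis and their -log10 p on the vertical axis. Blue points are the 10 strongest regions, from EXO at 6.04 to STZ at 7.87, and red points, at CRY2 and UBQ10, lie above most regions of like fold enrichment.

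The gene of CRY2 itself and UBQ10, whose promoter drives the transgene, carried regions with a high -log10 p for their fold enrichment. CRY2 had 4 regions, all with their summit inside the gene (chromosome 1, 1185728 to 1187870). Their fold enrichments in order along the chromosome were 1.99, 2.64, 3.78 and 2.41, and their -log10 p were 10.63, 18.09, 28.28 and 17.28. UBQ10, a polyubiquitin gene, had 1 region of 4061 bp that covered the gene completely, with 2.84 and 24.92 (chromosome 4, 2716603 to 2720663). Each -log10 p was divided by the median of regions within 2% of the same fold enrichment, where there were at least 20. This measure was chosen after the values were seen. Of 7217 regions with a ratio, 14 (0.194%) reached 1.5 and 5 reached 2, and 103 regions, mostly the strongest, had none. Of those 5, 3 were at CRY2 (2.45, 2.15 and 2.06), 1 at UBQ10 (2.34) and 1 near AT2G07734. The strongest CRY2 region had a ratio of 1.44. Against the 50 regions on either side in rank of fold enrichment instead, 12 regions reached 2, with CRY2 (2.37) and UBQ10 (2.33) the highest, and of the other CRY2 regions 1 also above 2 and the rest at 1.97 and 1.36. Reads from the transgene and from the native loci cannot be told apart. The share of photoreceptors and partners is therefore given below with and without CRY2. The other counts keep both loci.

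The weakest regions lay together on chromosome 2. The lowest values were 1.51 nearest AT2G07656, 1.53 in AT2G07652 and 1.61 nearest AT2G07655. Of the 6 lowest regions in the list, 5 lay between 3244694 and 3464215, a stretch singled out after its values were seen. That stretch held 6 regions, at 1.51 to 1.85, with a median width of 176 bp. Both regions at AT2G07722, with 1.67 and 1.83, had a high -log10 p of 11.10 and 11.61, and too few regions had like values for a ratio. The region near AT2G07734 named above (1.87, -log10 p 10.17) lies just beyond the stretch. It lies near the centromere where nuclear DNA is known to hold a large copy of the mitochondrial genome, so reads of the 2 copies cannot be told apart.

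CRY2 regions lay on all 5 chromosomes and were more numerous where genes were. Chromosome 1 had the most regions per Mb, 67.4, with 2052 regions, and chromosome 4 the fewest, 57.5, with 1068. Chromosomes 2, 3 and 5 had 58.1, 62.5 and 58.9 per Mb. Per 100 protein-coding genes the order changed, from 28.7 on chromosome 1 to 25.1 on chromosome 5. Of 121 bins of 1 Mb, none was without a region and the fullest held 132. The number of regions per bin went with the number of genes (Spearman's rho 0.84 over 121 bins, a description, since neighbouring bins share their surroundings). It was not in proportion to them. Regions per 100 genes were 20.3 in the 31 bins with fewest genes and 30.5 in the 30 bins with most.

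Neighbouring summits lay 7920 bp apart at the median. A perfectly even spread would put 16276 bp between them, but random placement alone would also put the median below that. The 2 values therefore do not measure clustering. The distances ran from 274 to 970820 bp. Within 2 kb of the next summit lay 1210 (16.5% of neighbouring pairs), and 731 of these pairs (60.4%) were assigned to the same gene. Linking summits no more than 2 kb apart gave 943 runs with 2153 regions (29.4% of the list). A run of 2 regions had a median highest fold enrichment of 2.47 (739 runs), a run of 3 had 2.70 (155) and a run of 4 had 2.87 (40), against 2.28 for the 5167 regions in no run. A run with more regions has more chances of a high one, so these medians are not a comparison of like with like.

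The longest run had 7 regions over 4 neighbouring genes on chromosome 4, from 13809663 to 13818676. AT4G27652 had a fold enrichment of 5.69, AT4G27654 had 3.91, and AT4G27657 had 3.39 and 2.60. AT4G27660 had 2.24, 3.16 and 2.18. The first 3 of these genes were covered completely by their regions. The cold response genes DREB1A, CBF1 and CBF2, transcription factors that sit side by side, made another cluster with 2 regions at each gene: 2.47 and 2.45 at DREB1A, 2.87 and 3.72 at CBF1, and 2.30 and 3.04 at CBF2. Both regions of CBF1 and both of CBF2 had their summits outside the gene, and both of DREB1A inside it.

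Most summits lay inside protein-coding genes or within 1 kb of them. Of the 7320, 4350 (59.4%, 58.3 to 60.5) lay inside a gene, 2317 (31.7%) outside but within 1 kb of one, and 653 (8.92%) farther away. The share of the genome that lies inside or near genes was not computed. These shares therefore do not show a preference for genes. The summits inside were 280 bp from the nearer edge of their gene at the median, and the summits outside 249 bp from the nearest gene. Within 250 bp of an edge lay 2001 (46.0%) of those inside and 1493 (50.3%) of those outside. The gene table gives no strand, so the start and the end of a gene could not be told apart and each position was measured from the nearer edge. The regions as a whole reached further into genes than the summits: 5942 (81.2%) overlapped a protein-coding gene, 2006 (27.4%) lay completely within 1 gene and 1324 (18.1%) touched several.

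Within genes, summits gathered near the ends, and less so in short genes and for strong regions. Each gene was divided into 5 equal shares from its ends inward, the outermost being the 10% at either end, so an even spread would put 20% in each. The outermost share held 43.9% (42.4 to 45.4) of the 4350 summits inside genes, the next ones held 20.7, 14.3 and 11.2%, and the middle held the rest. In genes of 4 kb and over the outermost share held 61.2% of 629 summits. In genes under 1 kb it held 18.9% (14.3 to 24.6) of 222, near an even spread. Regions of at least 3-fold enrichment were flatter, with 26.9, 19.0, 19.0, 16.3 and 18.7% from the outermost share to the middle. In genes of 1 to 2 kb the outermost share held 7.89% (4.21 to 14.3) of the 114 summits of at least 3-fold, 25.3% (20.2 to 31.2) of the 237 at 2.5 to 3-fold and 33.0% of the 888 under 2.5-fold. In genes of 2 to 4 kb the shares were 36.0, 52.0 and 50.3%.

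**Figure D2:**
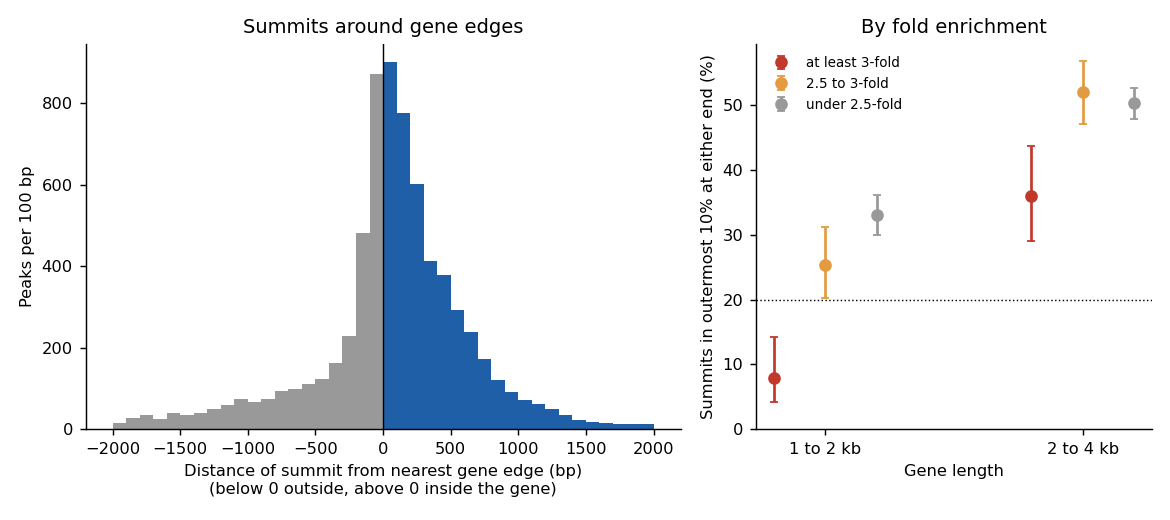
Left, summits per 100 bp by distance from the nearest gene edge (bp), outside the gene in grey below 0 and inside in blue above 0, with the 2 bins at the edge the fullest (872 outside, 901 inside). Right, the percentage of summits inside genes that lay in the outermost 10% at either end, with Wilson 95% intervals, for 2 classes of gene length and 3 of fold enrichment; the dotted line marks an even spread, 20%, and in genes of 1 to 2 kb the strongest regions lie below it at 7.89%.

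Cover of a gene by its regions differed with their strength. All regions together covered 193 genes completely, and at least 80% of 423 genes. The completely covered genes were short, with a median of 946 bp. Long genes covered to at least 80%, chosen after their values were seen, included LOX3 (91.6%) and LOX4 (80.8%), lipoxygenase genes of jasmonate synthesis. NIA2, a nitrate reductase gene, was covered to 99.5%, and EBF1, the gene of an F-box protein of ethylene signalling, to 90.8%. Of the 691 genes whose highest region lay in the strongest 10% of the list, 23.6% were covered to at least 80%, against 1.33% of the 527 genes in the weakest 10%. The median cover was 31.1% in the first of these groups and 12.4% in the second, and the median gene length 2236 and 2324 bp. Cover sums all regions at a gene, and 31.4% of the first group had several against 1.52% of the second. Wide regions and strong regions overlap in this list, with a Spearman's rho between width and fold enrichment of 0.33 over 7320 regions.

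The 5 widest regions were not the 5 strongest. AT5G25280 carried the widest, 4693 bp, at a fold enrichment of 3.50. AT3G17800 followed with 4465 bp at 2.30, the median of the whole list being 2.29. A region of 4339 bp at 3.64 had its summit in the transcribed pseudogene AT1G79245, 2363 bp from MST1, a sulfurtransferase gene. AT5G11090 had 4116 bp at 5.83. PEN3, the gene of an ABC transporter of pathogen defence, had 4094 bp at 2.76.

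Along the list, in 10 steps of 732 regions from the strongest to the weakest, width and gene cover went down while the share of summits inside genes stayed between 53.0 and 65.7%. The median width was 907 bp in the strongest step, 570 bp in the fifth and 494 bp in the weakest. Regions at the genes of 10 classes of transcription factors made up 6.15% of the strongest step, 4.64% of the next and 2.73 to 4.10% of the others, with 3.28% in the weakest. These classes hold 590 genes, 2.15% of all protein-coding genes. Regions at 6 classes grouped here as housekeeping, among them ribosomal proteins, histones and photosystem proteins, made up 0.683% of the strongest step. They made up 2.05% of the weakest and 1.38% of the whole list. These classes hold 286 genes, 1.04% of the total. The label is loose, since 49 of them are photosystem and light-harvesting genes. Both groups of classes had a region at a like share of their members, 32.7% of the factor genes and 31.8% of those grouped as housekeeping.

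**Figure D3:**
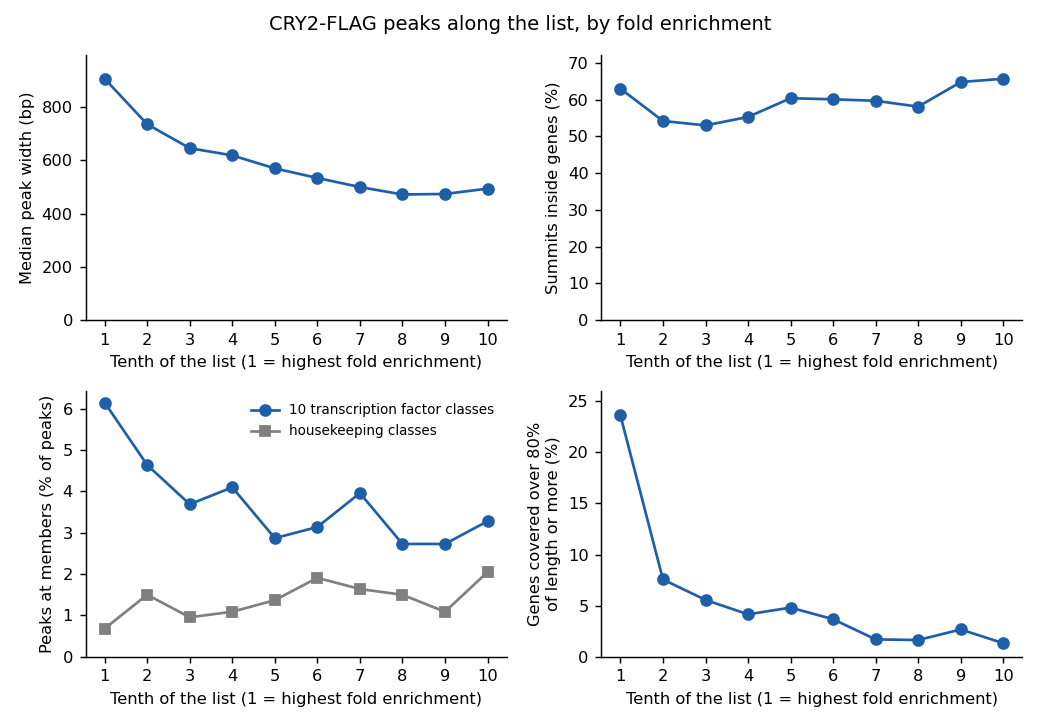
The 10 points in each panel are equal steps of the list by fold enrichment, 1 the strongest, and the vertical axes give median region width (bp), summits inside protein-coding genes (%), regions at transcription factor and housekeeping classes (% of the regions of the step) and genes covered over at least 80% of their length (% of genes whose highest region lies in the step). Width goes from 907 to 494 bp and gene cover from 23.6 to 1.33%, and the regions at factor genes from 6.15 to 3.28%. The classes labelled housekeeping include photosystem and light-harvesting genes.

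Each region was given to 1 protein-coding gene, the one closest to the summit and at most 3 kb away. By this rule 6067 of 27432 genes had a region, 22.1%. This share is the background for every gene class. A summit lay inside 3951 genes (14.4%), and 473 genes (1.72%) had a region of at least 3-fold. Longer genes had a region more often, up to a point: with all genes in 10 steps of length, of the shortest step 6.71% (5.83 to 7.70) had one, of the fifth 24.4%, and of the longest 26.1% (24.5 to 27.8). Per kb of gene, the shortest step had 0.146 regions, the next 4 had 0.153 to 0.167, and the longest had 0.0527. Genes with a region also lay beside each other: the next gene on the chromosome had a region in 28.0% of cases after a gene with one, and in 20.4% after a gene without, over 27427 neighbouring pairs.

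Several regions at 1 gene were found at 957 genes, 3.49% of all and 15.8% of those with a region, and they held 2090 regions (28.6% of the list). Of these genes 805 had 2 regions, 131 had 3, 18 had 4 and 3 had 5. The highest region of such a gene had a median of 2.50 and the second 2.18, and their summits lay 1750 bp apart at the median. In 318 genes (33.2%) both of these lay inside the gene, in 496 (51.8%) one did and in 143 (14.9%) neither. The highest region reached 3-fold in 16.0% of them and in 6.26% of the genes with 1 region, which had 1 chance each. Among genes with a region, 9.24% of the shortest step of genes had several and 16.0% of the longest.

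**Figure D4:**
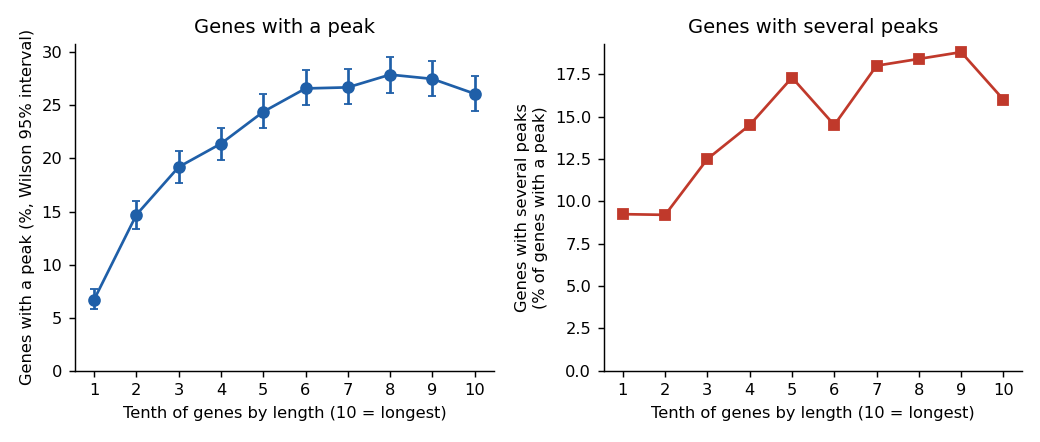
Left, the percentage of protein-coding genes with a CRY2 region for 10 equal steps of genes by length, with Wilson 95% intervals. Right, the percentage of those genes that had several regions; the first goes from 6.71% in the shortest step to 27.9% in the eighth, the second from 9.24 to 18.8% in the ninth.

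Genes with more regions had a higher strongest region: its median was 2.28 for genes with 1 region, 2.47 with 2, 2.64 with 3 and 2.88 with 4, though more regions also give more chances of a high one. TIC, a regulator of the circadian clock, had 5, at 2.13, 2.17, 2.24, 2.13 and 2.13 along a gene of 6803 bp. NRT1.1, the nitrate transporter and sensor, had 5, at 2.78, 2.07, 2.01, 2.30 and 2.41. AT1G78070 had 5, of which the highest was 2.84. ERD6, a sugar transporter gene, and AT3G13800 had 4 each, with highest values of 2.83 and 2.28. Of the 18 genes with 4, a pair chosen after their values were seen follows. MAPKKK14, a kinase at the top of a MAP kinase cascade, had 4.88, 2.53, 2.24 and 2.06. GID1B, a gibberellin receptor gene, had 3.04, 2.75, 2.61 and 2.47.

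Genes of 38 classes, chosen by name and drawn up with earlier results of these data known, were then counted. A class holds only the genes matched by name and may leave out much of a family. Each share is therefore that of the matched members. In 17 classes the interval of the share with a region lay above the 22.1% of all genes, in 2 below it, and in 19 it included it. Of the 17, 10 stayed above the share of all genes under each of 3 alternatives, which changed the gene assignment, the list or the gene lengths used. The others were the C2H2, bHLH and B-box factors, calmodulin-like, photosystem, tubulin and actin, and pectin enzyme genes, and each included the background under at least 1 alternative. The classes hold mostly genes to which the gene table gives a symbol, and of those 10363 genes 2851 (27.5%) had a region. Against that share, an alternative chosen after seeing the data, 10 classes lay above and 3 below, with cytochrome P450 the third. WRKY, bHLH and B-box factors, arabinogalactan proteins, calmodulin-like, pectin enzyme, and tubulin and actin genes then included it. Above under every setting were 8 classes: rapidly inducible genes, ERF and DREB factors, heat shock proteins, RING and U-box ligases, F-box proteins, MAP kinase cascade genes, UGT glycosyltransferases, and photoreceptors and partners. The last of these counts the CRY2 locus, and the 3 alternatives were not recounted without it. Within genes of 1 to 4 kb its interval with CRY2 began at 26.2%, close to the 24.3% of all such genes. Its place under every setting may therefore rest on that locus. Some genes, such as STZ and WRKY40, count in more than 1 class, so the classes are not independent of each other. Gene length also differs between classes and moves with the share, and its part in these shares was not tested.

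Among the classes counted, genes known to respond within minutes to touch, cold, wounding or elicitors had a region most often: 19 of 24 (79.2%, 59.5 to 90.8). Their highest regions had a median of 3.27, against 2.30 for all genes with a region, and 11 of the 24 reached 3-fold. The members were chosen with earlier results of these data known, and STZ, TCH4 and EXO are among the strongest regions of the list. The share, the median and the place of this class may therefore partly reflect that choice, which the interval does not cover. After STZ, TCH4 and EXO came JAZ1, a repressor of jasmonate responses, at 4.44. RHL41, the C2H2 zinc finger ZAT12, followed at 4.16, and SZF1, a CCCH zinc finger of salt stress, at 4.05. CBF1 (3.72), the transcription factor WRKY40 (3.56), the calmodulin-like TCH3 (3.35), the MAP kinase MPK3 (3.27) and CBF2 (3.04) completed the 11.

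The other members with a region were weaker, and 13 of the 19 had several regions, against 15.8% of all genes with a region. The ethylene response factors ERF6 and ERF5 had 2.93 and 2.59, CZF1 2.53 and DREB1A 2.47. TCH2, a calmodulin-like protein, had 2.24, and CAM2, a calmodulin, 2.13. WRKY33 and WRKY53, factors of defence and senescence, had 2.13 and 2.06. CCR4, MYB51, ATL2, PP2C5 and GATL2 had no region assigned.

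Among the members matched by name, transcription factors differed by class. The C2H2 zinc fingers had a region at 6 of 10 genes, with RHL41 and ZF2 (3.96) after STZ. ERF and DREB factors had one at 29 of 50 (58.0%), with RAP2.4, ERF4 and AT1G22190 (3.90). Of the 29, 13 had several, against 15.8% of all genes with a region. WRKY factors had one at 27 of 72 (37.5%), led by WRKY18 at 3.85 and WRKY11 at 3.60. B-box factors had one at 12 of 30 (40.0%), led by BBX28 at 3.16, and bHLH factors at 12 of 31 (38.7%), led by bHLH34 at 3.52. For these 5 classes the interval lay above 22.1%.

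For the other classes of factors the interval included 22.1%. They were bZIP (16 of 49), homeobox (29 of 101), NAC (27 of 100), DOF (4 of 16) and MYB (31 of 131). Their highest regions were 3.04 at AT1G06070, 3.51 at HB-1, 4.77 at NAC102, 2.93 at DOF1 and 4.49 at MYBR1, also called MYB44, a factor of abscisic acid and stress responses.

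MAP kinase cascade genes had a region at 22 of 49 (44.9%), with MAPKKK14 at 4.88 and MKK9, a kinase one step below, at 4.60. Calmodulin-like genes had one at 9 of 20 (45.0%), led by CML38 at 4.11. RING and U-box ubiquitin ligases had one at 25 of 51 (49.0%), led by PUB39 at 2.99 and RHA2B at 2.93. None of the 25 reached 3-fold, but of all 6067 genes with a region only 473 did. F-box proteins, which choose substrates for ubiquitin ligases, had one at 14 of 31 (45.2%), with the stress-induced FBS1 at 4.49 and the auxin receptor AFB2 at 4.37.

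The CBL, CIPK and CPK calcium-signalling genes (20 of 70, led by CIPK15 at 3.10), receptor-like kinases (26 of 86, LRR XI-23 at 3.16) and PP2C phosphatases (5 of 13, HAI2 at 2.93) had intervals that included 22.1%. JAZ repressor genes had a region at 5 of 12 (41.7%, 19.3 to 68.0), an interval that also included 22.1%. All 5 had several regions, as did 15.8% of all genes with a region. Their highest had a median of 2.92, with JAZ7 at 3.62 after JAZ1. Auxin response genes had a region at 35 of 145 (24.1%, 17.9 to 31.7), with IAA16, an Aux/IAA repressor, at 3.84, and a median of 2.59.

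Cell wall and metabolic classes were mixed. Arabinogalactan proteins had a region at 18 of 51 (35.3%), with AGP1 at 5.29, and pectin enzymes at 13 of 35 (37.1%), with PG2 at 2.99. UGT glycosyltransferases had one at 25 of 63 (39.7%), with GT72B1 at 3.18. Aquaporins had one at 12 of 36, with the water channel PIP2E at 5.06. Expansins and xyloglucan enzymes had one at 18 of 70, led by TCH4. Glutathione transferases had one at 11 of 48, with GSTF8 at 6.03. Cytochrome P450 genes had one at 45 of 241 (18.7%), with CYP94B3 and AOS, which break down and make jasmonates, at 3.78 and 3.75. The intervals of the last 4 classes included 22.1%.

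Heat shock proteins had one at 16 of 32, with HSP70 at 2.77 and HSP70T-2 at 2.76 as the highest. Photosystem and light-harvesting genes had one at 21 of 49 (42.9%), with 2.84 assigned to LHCB2.2 from a summit 2859 bp away and 2.76 inside LHCB2.3, and tubulins and actins at 10 of 24 (41.7%), led by ACT7 at 2.93. No region in these 3 classes reached 3-fold, but of all 6067 genes with a region only 473 had one that did. None among so few members is therefore not read as a trait of these classes. Histones (8 of 24, HTA10 at 2.99), translation factors (10 of 30, EIF4E at 2.64), proteasome and ubiquitin genes (25 of 90, UBC1 at 3.79), ribosomal proteins (17 of 70, RS27A at 2.50) and pentatricopeptide repeat proteins (3 of 12) had intervals that included 22.1%. The highest region among the last class, 3.00, had its summit in the transcribed pseudogene AT3G06433, 1757 bp from PPR2.

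The classes below the background were the defensin-like and cysteine-rich peptides, with a region at 4 of 116 (3.45%), and the seed storage and late embryogenesis proteins, with 1 of 25. The peptide genes are short, with a median of 604 bp, and short genes had few regions in general. LCR32 had the highest region among them, 3.50. The next, 2.30, had its summit 2126 bp from LCR67, in a gene of a non-coding RNA. LEA14, at 3.10, was the seed class member with a region.

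**Figure D5:**
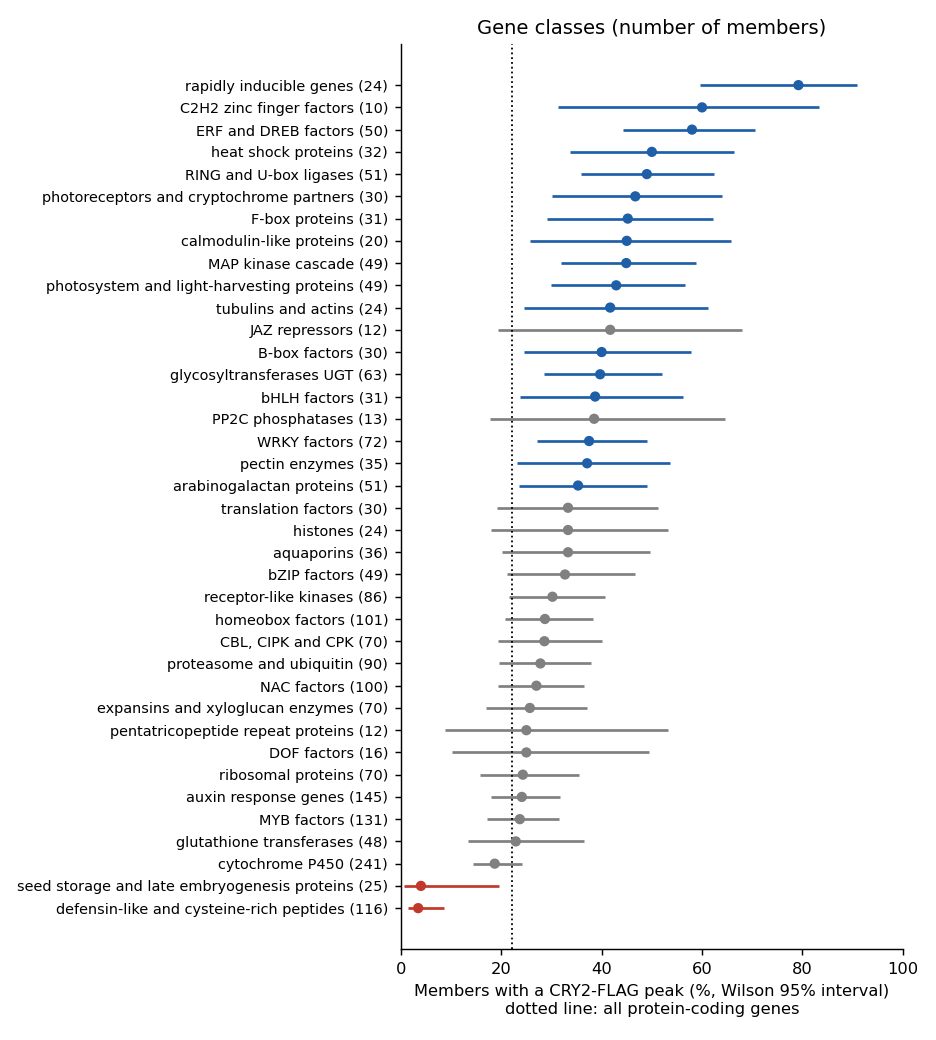
Points give the percentage of the members of each class with a CRY2 region and lines its Wilson 95% interval, with the number of members in brackets and the share of all protein-coding genes, 22.1%, as a dotted line. Blue classes (17) lie above that share, from rapidly inducible genes at 79.2%, red classes (2) below it and grey classes (19) include it. The classes were drawn up with earlier results of these data known, which the intervals do not cover.

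Photoreceptors and the known partners of cryptochromes had a region at 14 of the 30 that the gene table names (46.7%, 30.2 to 63.9), or at 13 of 29 (44.8%, 28.4 to 62.5) without the CRY2 locus. Among receptors, the phytochrome genes PHYB and PHYA had 2.39 and 2.07, and PHYC, PHYD and PHYE had none assigned. The blue-light receptor genes PHOT1 (2.30), PHOT2 (2.30), ZTL (2.18) and CRY1 (2.13) had regions, and LKP2, FKF1 and the UV-B receptor gene UVR8 had none. CRY3, counted here by its name, had 2.36. Apart from the CRY2 locus (3.78), SPA1 was the member of at least 3-fold, at 3.33.

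SPA1 works with the ubiquitin ligase COP1 to break down light-response factors in the dark. COP1, SPA2, SPA3 and SPA4 had no region assigned. Among the factors, PIL6, also called PIF5, had 2.93 and PIF4 had 2.76, both bHLH factors of elongation. CIB1, a bHLH partner of CRY2, had 2.47. The light-response factors HY5 and HYH had 2.46 and 2.36. PIF3, PIL5 (PIF1), CIB5 and HFR1 had none assigned, nor had the flowering genes CO and FT.

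Few summits lay far from protein-coding genes: 120 (1.64%) were over 3 kb from one. How much of the genome lies that far from genes was not computed. Their median fold enrichment was 2.30 and their median width 382 bp. The strongest, at 4.88, lay on chromosome 3 (9698558 to 9699147), 898 bp from the pseudogene AT3G26486. The next, at 4.06, lay on chromosome 5 (13624266 to 13624721). Of the 2970 summits outside protein-coding genes, 140 lay in genes of long non-coding RNAs, 30 in pseudogenes and 12 in tRNA genes.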

How the data were processed

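Chromatin immunoprecipitation sequencing of CRY2 was analysed from the authors' deposited narrow-peak list. Tools listed by the submitters' processing notes are Bowtie2 2.1.0, MACS2 2.0.10 and CASAVA 1.8.2, with the build TAIR10 and no roles. Per the file, the authors gave each peak a deposited fold enrichment (a ratio), a deposited -log10 p, a deposited score (10 times -log10 p with the decimals dropped), a summit offset and no usable q value. Per the labels, 2 FLAG and 2 IgG libraries were pooled. Unused columns of per-sample values numbered 0. No anti-FLAG precipitation from untagged seedlings was used here.

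Python 3.11.15, numpy 2.4.6, pandas 2.3.3 and matplotlib 3.10.9 were used. A summit is the peak start plus its offset, counted from 1, and was given to the nearest of 27432 nuclear protein-coding genes within 3 kb in a RefSeq table of assembly TAIR10.1, which holds neither strand nor sequence. Ties went to the gene with the nearer centre. The planned search for sequence motifs and the printing of sequences were therefore left out. The step that gives summits to genes was tested on simulated summits at known places. The spacing, cover, class and ratio steps were not tested in this way.

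The members and gene classes were chosen with earlier results of these data known, and the name patterns of the classes were tightened on gene names after the lists were in hand, without using peaks. The genes named are those of the 10 strongest, 3 weakest and 5 widest peaks, the 5 genes with most peaks, the highest peak of each class (2 members for the 5 classes of highest and the 3 of lowest share) and all members of the lists of rapidly inducible genes, photoreceptors and partners, and transgene loci. Genes named beyond this rule, among them those marked so in the text, were chosen after their values were seen. No test was run.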

Additional observations from a re-analysis of the deposited data

How the results depend on the processing

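With the upper 50% of the list by fold enrichment, the median width was 676 bp instead of 579, the median distance between summits 15924 bp instead of 7920, summits inside genes 57.1%, genes with a region 3243, genes with several 319 and the outermost share of genes 42.3%. The smaller list itself sets the distances and counts. Summits inside genes were 62.1% from peak midpoints, 58.2% for the upper 50% by -log10 p and 63.0% with genes of every type. Counting only summits inside a gene gave 3951 genes with a region and 370 with several. In genes of at least 2 kb the outermost share was 52.1%. Of the 22 alternatives to these results, the other 10 stayed within the counting interval or within 1.5 times the count. The latter bound is wide: taking every gene within 1 kb of a region gave 8862 genes instead of 6067. The class shares were not counted with that wider assignment. Of the 17 classes above the share of all genes, 10 were above it under all 3 alternatives, as were 1 of the 2 below it. Those that came to include it were C2H2 factors within genes of 1 to 4 kb, B-box factors and tubulins and actins with summits inside only, calmodulin-like, photosystem and pectin enzyme genes in the upper 50%, and bHLH factors under all 3. Conversely, 5 of the 19 classes that included it lay above it under at least 1: PP2C, aquaporin, auxin response and JAZ genes in the upper 50%, JAZ also with summits inside only, and bZIP factors within genes of 1 to 4 kb. With genes that have a symbol as background (27.5%), chosen after seeing the data, 10 classes lay above. Seed proteins included it in the upper 50% and within genes of 1 to 4 kb. With like regions taken as the 50 on either side in rank, an alternative chosen after seeing the data, 12 instead of 5 regions had a -log10 p of at least 2 times the median, and 30 instead of 14 of at least 1.5 times. That window spans a wide range of fold enrichment at the top of the list.

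No paired analysis was possible because the authors pooled the replicates, and for the same reason no replicate was left out. The motif alternatives were not run, for want of sequence. Depth is unknown, so no limit can be given for a gene with no region.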
